A study of Mus musculus with 48 samples.

Results

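The genes described here encode subunits of the oxidative phosphorylation complexes of the mitochondrial inner membrane. They were taken by name as all gene models whose symbol began with Ndufa, Ndufb, Ndufc, Ndufs, Ndufv, Uqcr, Cox4i, Cox5, Cox6, Cox7, Cox8 or Atp5, or was Sdha, Sdhb, Sdhc or Sdhd. Of 21025 gene models, 89 rows matched and gave 88 genes, since Ndufs5 had 2 rows and the row with the higher mean was kept. The rule used names and no measured difference between groups, but it was set with earlier results of these data known. By complex, 36 were of complex I, 4 of complex II, 7 of complex III, 19 of complex IV and 15 of complex V, and 7 had matching names but are not subunits in the strict sense (Ndufaf1, Ndufaf2, Ndufaf3, Ndufaf4, Cox7a2l, Atp5s and Atp5sl).

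Levels were measured by RNA sequencing in C57BL/6 mouse B-lineage cells in a study of Ikaros, a transcription factor with zinc fingers that Ikzf1 encodes, and 30 RNA libraries in 11 groups were used. Total pro-B cells were Ikzf1(fl/-) Cd79a(Cre/+) when deleted and Ikzf1(fl/+) Cd79a(Cre/+) when control, and c-Kit-high pro-B cells had the same genotypes. Rag2-null pro-B cells were Ikzf1(fl/-) Cd79a(Cre/+) Rag2(-/-) when deleted and Ikzf1(fl/+) Cd79a(Cre/+) Rag2(-/-) when control. Pre-B cells were wild-type, and each of these 7 groups held 2 libraries. Ebf1(-/-) pre-pro-B cells carried the Ikzf1 hairpin Ik4056, the Ikzf1 hairpin Ik2709, the control hairpin Ren713 or an empty vector, with 4 libraries each. All deleted and control pro-B cells carried Cre under the Cd79a locus, which is active in the B lineage, and the controls kept a single unfloxed Ikzf1 allele. All pre-pro-B cells, controls included, lacked Ebf1, a factor that B-cell commitment requires. Whether the replicates were separate animals or cultures is not stated, so the p-values speak of the spread among these libraries, and that spread may be technical. No ages were given in the labels.

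Values are in RPKM, that is, reads per kilobase of a gene model per M (mega) reads mapped, and were deposited by the authors. The number of reads implied by the steps between low values ran from 2.31 to 36.17 M per library and was lowest in c-Kit-high control replicate 2. Ikzf1 itself was at 45.3 and 48.9 RPKM in deleted and 59.2 and 56.4 RPKM in control pro-B cells, and at 39.9 and 36.7 RPKM in deleted and 62.3 and 56.2 RPKM in control Rag2-null cells. It was at 64.5 and 86.0 RPKM in deleted and 101 and 124 RPKM in control c-Kit-high cells, and at 23.7 to 60.6 RPKM with the Ikzf1 hairpins against 106 to 145 RPKM with the controls. Which part of the gene Cre removes was not given in the sources used here, so reads outside it do not test the deletion. The summed level of 14 pro-B marker genes was 2921 to 7839 RPKM in the sorted cells and 72.5 to 183 RPKM in the pre-pro-B cells.

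Oxidative phosphorylation is the route by which most animal cells make ATP from respiration. Complex I (NADH dehydrogenase) and complex II (succinate dehydrogenase) pass electrons to ubiquinone, complex III (the cytochrome bc1 complex) passes them to cytochrome c, and complex IV (cytochrome c oxidase) passes them to oxygen, while complex V (ATP synthase) uses the proton gradient so made. A few subunits are encoded by mitochondrial DNA and the rest by nuclear genes, of which those that match the names above are described here. The complex III subunit gene Cyc1 does not match and was listed with the carriers. Several complex IV subunits exist as a widely expressed form and a form restricted to tissues such as muscle, lung or testis. Growing lymphoid precursors are known to use both glycolysis and respiration.

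Promoter sequence was read for 72 of the 88 genes, in 78 windows that run 250 bases before to 50 bases after a RefSeq transcription start of GRCm38.p6. The 16 others had no entry in the table used. Motifs were searched as exact letters on both strands. The NRF1 motif GCGCANGCG was in 26.9% of the members' windows and in 6.25% of all 32851 windows of that length. The ETS motif CCGGAAG, which GABP binds, was in 21.8% and 8.86%, and the YY1 motif AAGATGGCG in 11.5% and 1.4%. The Ikaros core TGGGAA was in 17.9% of the members' windows and in 25.6% of all windows. In 0 of the members' windows did matches of different motifs overlap. Of the 72 members with a window, 37 had a match to NRF1, GABP or YY1, and that share was not computed for all genes. The windows of all genes were not matched to those of the members in G and C content or in level. A match is a description of the letters and not of binding. The 4 windows below are shown because they belong to a widely expressed subunit with a high level (Cox6a1), to a complex I subunit that fell in Rag2-null cells (Ndufs6) and to the tissue-restricted subunits Cox7a1 and Cox6b2. Capitals mark letters that match the motifs, and each window is printed 5′ to 3′ on the strand of its gene.
Cox6a1: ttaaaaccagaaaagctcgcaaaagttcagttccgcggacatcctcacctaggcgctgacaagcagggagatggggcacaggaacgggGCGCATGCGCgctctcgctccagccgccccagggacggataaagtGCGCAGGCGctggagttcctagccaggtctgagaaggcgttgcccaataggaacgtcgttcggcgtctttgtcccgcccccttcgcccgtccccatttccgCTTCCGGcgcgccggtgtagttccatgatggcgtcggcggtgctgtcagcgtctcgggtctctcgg
Ndufs6: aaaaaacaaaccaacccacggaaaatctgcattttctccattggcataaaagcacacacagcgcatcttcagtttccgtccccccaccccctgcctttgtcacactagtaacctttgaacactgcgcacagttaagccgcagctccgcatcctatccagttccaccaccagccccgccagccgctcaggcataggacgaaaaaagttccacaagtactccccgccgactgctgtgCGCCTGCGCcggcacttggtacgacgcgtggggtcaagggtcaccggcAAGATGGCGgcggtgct
Cox7a1: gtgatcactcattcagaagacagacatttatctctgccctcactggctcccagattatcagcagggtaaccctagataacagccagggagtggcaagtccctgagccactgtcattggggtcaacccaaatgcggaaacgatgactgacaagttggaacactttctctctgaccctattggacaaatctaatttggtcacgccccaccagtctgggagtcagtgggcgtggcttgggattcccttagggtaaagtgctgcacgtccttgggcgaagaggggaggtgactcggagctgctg
Cox6b2: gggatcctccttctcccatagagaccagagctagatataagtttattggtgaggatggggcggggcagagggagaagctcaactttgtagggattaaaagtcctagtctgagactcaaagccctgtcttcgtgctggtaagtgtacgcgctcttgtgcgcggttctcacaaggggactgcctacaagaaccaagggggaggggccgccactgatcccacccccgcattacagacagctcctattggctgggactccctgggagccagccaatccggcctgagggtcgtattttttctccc
The Cox6a1 window (GRCm38.p6 chr5:115348909-115349208, minus strand) held 3 NRF1 matches, of which 2 overlapped each other, and 1 GABP match. The Ndufs6 window (chr13:73328433-73328732, minus strand) held 1 NRF1 match and 1 YY1 match. The Cox7a1 window (chr7:30183921-30184220, plus strand) and the Cox6b2 window (chr7:4753045-4753344, minus strand) held 0 matches to the motifs searched.

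Most of these genes were among the strongly expressed genes of every group. Averaged over the 30 libraries, the median member was at 174 RPKM and the median gene model at 1.29 RPKM. At least 100 RPKM was reached by 59 members and at least 500 RPKM by 14, while 16 were under 20 RPKM. The highest were Atp5b, the catalytic beta subunit of ATP synthase, at 1222 RPKM, Cox4i1, the common form of subunit 4 of cytochrome c oxidase, at 1133 RPKM, and Cox6a1 at 1045 RPKM. In complex I, Ndufa3 had the highest mean (603 RPKM) and Ndufab1 the lowest (9.49 RPKM), and in complex III these were Uqcrq (705 RPKM) and Uqcrb (16.8 RPKM). In complex II, Sdhb, the iron-sulphur subunit, was at 269.5 RPKM and Sdha, the flavoprotein, at 131 RPKM. The 3 genes for the c ring of ATP synthase, which encode the same mature protein, were far apart in the deposited values, with Atp5g3 at 698 RPKM, Atp5g1 at 38.0 RPKM and Atp5g2 at 1.24 RPKM. How reads that match several genes or copies were counted was not examined here. Low values such as those of Atp5g2, Uqcrb and Ndufab1 may therefore understate these genes. Ndufab1 is among the 9 members with a named pseudogene copy. The testis form Cox7b2 and Cox8c were listed at 0 in every library, and Cox8b, a muscle form, and Ndufa4l2, a paralogue of Ndufa4, were under 1 RPKM in every library. The other 84 passed the filter of at least 1 RPKM in at least 2 libraries of a fit, and only these were tested.

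A gene's level in RPKM is relative to its library, so the members' summed level is given as a share of all RPKM. That share was 3.73% and 3.96% in deleted and 3.70% and 3.67% in control pro-B cells, and 2.94% and 2.81% in deleted and 2.72% and 2.96% in control c-Kit-high cells. In Rag2-null cells it was 4.33% and 4.31% with Ikzf1 deleted, against 5.13% and 5.28% in controls. Wild-type pre-B cells had the lowest shares, at 2.17% and 2.45%. In pre-pro-B cells it averaged 5.02% ± 0.93 with Ik4056, 5.18% ± 0.775 with Ik2709, 5.35% ± 0.709 with Ren713 and 5.32% ± 0.75 with the empty vector (SD, n = 4 each). The deleted and control libraries overlapped in c-Kit-high cells. The deleted libraries lay just above the controls in total pro-B cells and below them in Rag2-null cells. In pre-pro-B cells replicate 4 was lowest with every construct, between 4.09% and 4.34%, and this spread between replicate numbers was wider than any difference between construct means. In these bulk samples fewer cells of a type and less RNA per cell cannot be told apart.

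**Figure D1:**
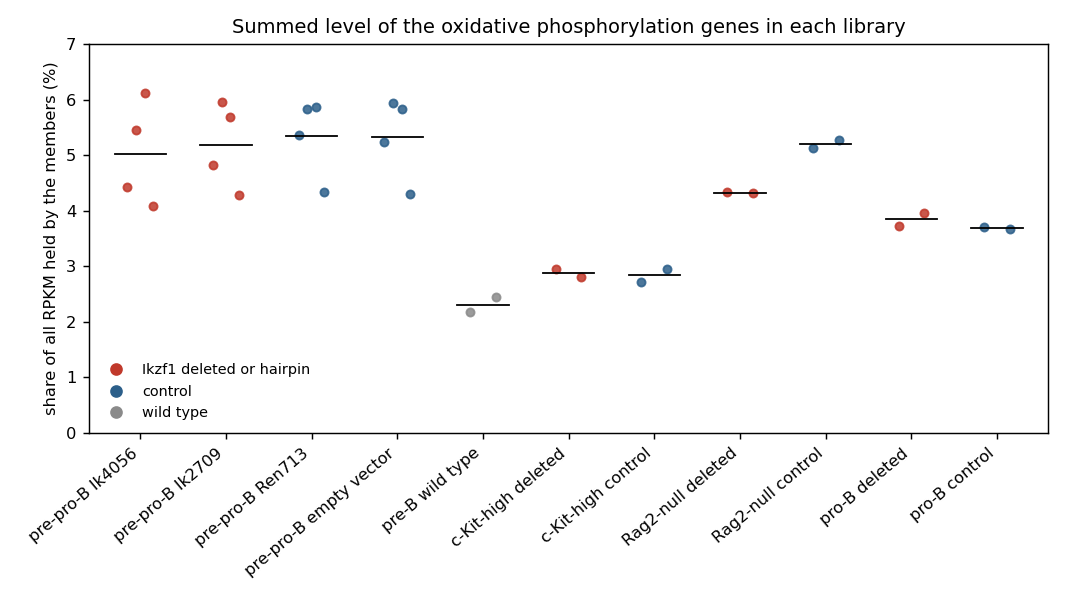
Share of all RPKM held by the 88 genes (y axis, percent) in each of the 30 libraries, grouped by cell type with Ikzf1-deleted or hairpin groups left of their controls; points are libraries and horizontal lines are group means. The Rag2-null deleted libraries (4.33% and 4.31%) sit below their controls (5.13% and 5.28%), and the wild-type pre-B libraries are lowest.

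The members varied together over the groups. Among the 78 with a mean of group means of at least 10 RPKM, Pearson's r between a member's log2 group means and the median of the other members over the 11 groups had a median of 0.949, and 64 members were above 0.8. These groups differ in sequencing depth and in how much of each library the highest genes take, which all members share, so r is only a description. It was below 0 for 5 members. Cox6b2, a testis form of a complex IV subunit, had r = -0.79, Atp5sl r = -0.43, Uqcrb, a small subunit of complex III, r = -0.37, Cox7a2l r = -0.04 and Cox7a1, the muscle form of subunit 7a, r = -0.01. The median deviation of the 78 members from their own mean was -1.01 on the log2 scale in pre-B cells, -0.64 in deleted and -0.63 in control c-Kit-high cells, -0.14 in deleted and -0.18 in control pro-B cells, and 0.16 in deleted and 0.56 in control Rag2-null cells. It was 0.42 with Ik4056, 0.48 with Ik2709, 0.50 with Ren713 and 0.51 with the empty vector.

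**Figure D2:**
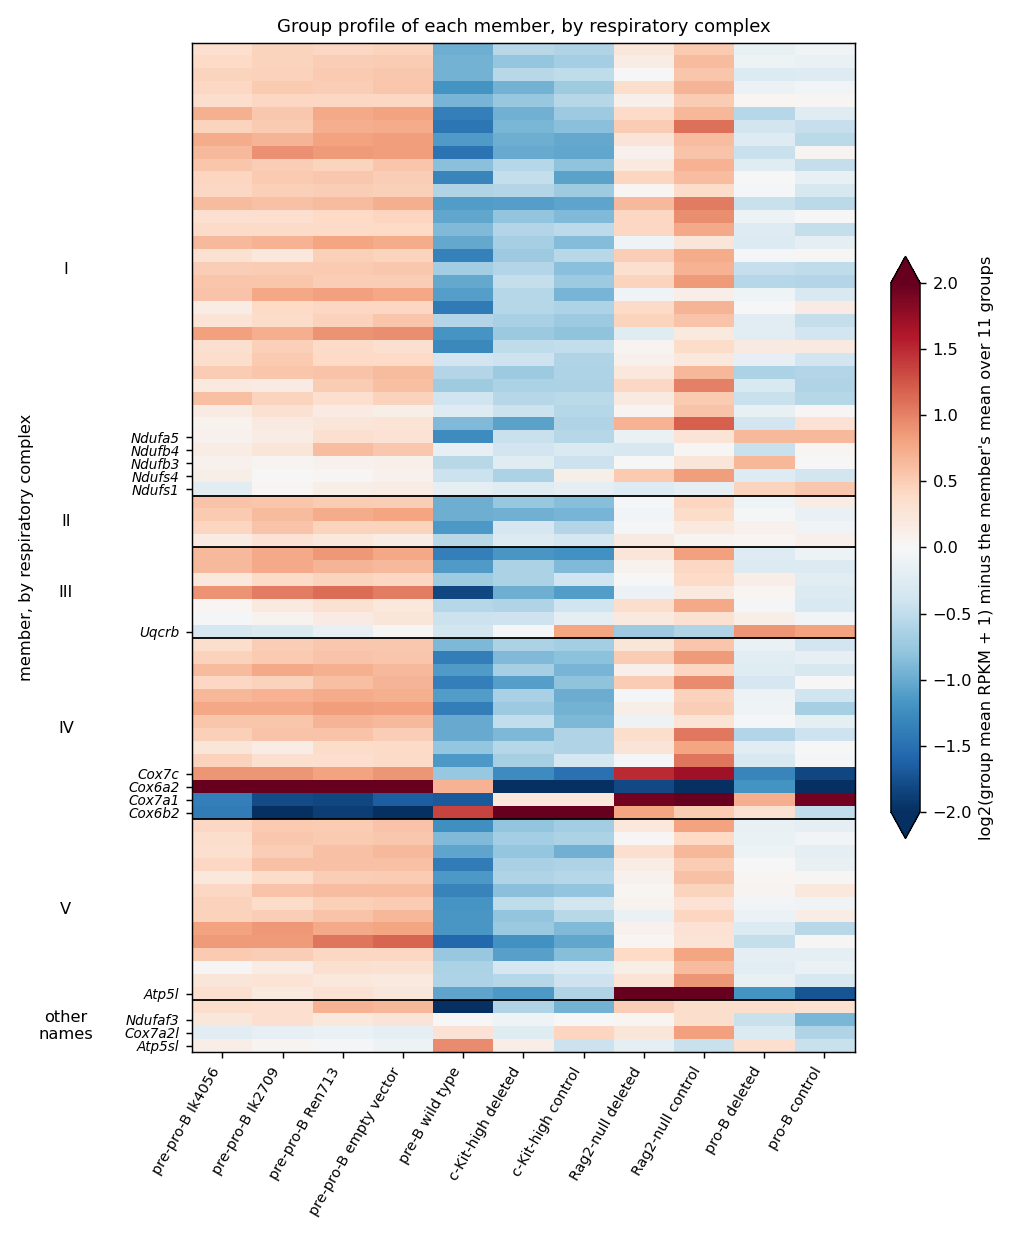
Heat map of log2(group mean RPKM + 1) minus each member's mean over the 11 groups (colour scale) for the 78 members of at least 10 RPKM (rows, by complex, named where r was at most 0.8) in the 11 groups (columns). Most rows run from low in pre-B cells (median -1.01) to high in Rag2-null controls (median 0.56) and pre-pro-B cells, and Cox6b2, Cox7a1, Uqcrb and Atp5sl do not follow them.

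The question of the deletions was how B-cell precursors change when Ikaros is lost, here asked of Rag2-null pro-B cells, which cannot rearrange their immunoglobulin genes. In them 30 members fell and 2 rose with Ikzf1 deleted, of 84 tested. Ndufa4, now counted as a complex IV subunit, fell to a mean of 268 RPKM in deleted cells, against 582 RPKM in controls, and genes for subunits of complexes I, II, III, IV and V were all among those that fell. Lower calls were made for 35.7% of the members and for 6.84% of all 11937 genes tested, and higher calls for 2.38% of the members and 15.5% of all genes (limma, Benjamini-Hochberg adjusted p under 0.05, over all genes tested). The members' median log2 difference was -0.35 and that of all genes 0.06, and with quantile normalization they were -0.16 and -0.07. Both deleted libraries lay below both controls for 69 members, against 23.6% of all genes, and above both for 5, against 38% of all genes.

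In complex I, 13 of 36 members fell and all 36 differences were below 0, with a median of -0.35 on the log2 scale. Ndufs6, a small zinc-binding subunit, was at 205 and 185 RPKM in deleted cells, against 280.2 and 280.4 RPKM in controls, a log2 difference of -0.52 ± 0.11 (SE; limma, adjusted p = 0.00431). Ndufa1, a single-pass membrane subunit encoded on the X chromosome, was at 214 and 194 RPKM in deleted cells, against 328 and 286 RPKM in controls, and fell by 0.58 (limma, adjusted p = 0.00921). For both genes the controls were higher and the groups did not overlap. Ndufs8, an iron-sulphur subunit, fell by 0.52, the membrane-arm subunit Ndufb8 by 0.48 and the accessory subunit Ndufa9 by 0.40 (limma, adjusted p = 0.0119, 0.022 and 0.0287). The core subunit Ndufs1, which takes electrons from the flavin end of the complex, had 17.5 and 20.7 RPKM in deleted cells and 17.6 and 22.6 RPKM in controls and was not called, and its groups overlapped.

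In complex II only Sdhb passed the test, at 223 and 229 RPKM in deleted cells, against 274 and 342.5 RPKM in controls (log2 difference -0.44 ± 0.13, limma, adjusted p = 0.0273). In complex III only Uqcrq, a small subunit near the ubiquinone site, did, with a mean of 637 RPKM in deleted cells and 958 RPKM in controls (log2 difference -0.58 ± 0.13, limma, adjusted p = 0.00779). The 7 complex III differences were all below 0.

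In complex IV, 6 members fell and 2 rose, of 15 tested. Ndufa4 was at 252 and 284 RPKM in deleted cells, against 610 and 554 RPKM in controls, a log2 difference of -1.12 ± 0.14 (limma, adjusted p = 0.000111). Cox7a1 was at 26.4 and 36.6 RPKM in deleted cells, against 98.3 and 65.4 RPKM in controls, a difference of -1.34 ± 0.26 (limma, adjusted p = 0.00322). Both genes were lower in each deleted library than in either control. The other 4 were Cox7a2 (-0.71), Cox6c (-0.53), Cox6a1 (-0.49) and Cox5a (-0.44), subunits of the widely expressed enzyme. Cox4i1 had 1017 and 948 RPKM in deleted cells and 1233 and 1220 RPKM in controls and missed the threshold (limma, adjusted p = 0.0543). The 2 that rose were tissue-restricted forms, given with the other isoforms further on.

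In complex V, 9 of 15 members fell. Atp5g3, which had the highest level of the c-ring genes, was at 533 and 541.5 RPKM in deleted cells, against 723 and 875 RPKM in controls (log2 difference -0.56 ± 0.11, limma, adjusted p = 0.00294). Atp5h, a stalk subunit, was at 155 and 147 RPKM in deleted cells, against 211 and 222 RPKM in controls (-0.52 ± 0.11, adjusted p = 0.00462). Atp5e, the epsilon subunit, fell by 0.62, Atp5a1, the alpha subunit of the catalytic head, by 0.37 and Atp5b by 0.39. Atp5b lay at the threshold, with 1033 and 1078 RPKM in deleted cells against 1271 and 1509 RPKM in controls (adjusted p = 0.0498). None of the 7 members that are not strict subunits passed the test.

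**Figure D3:**
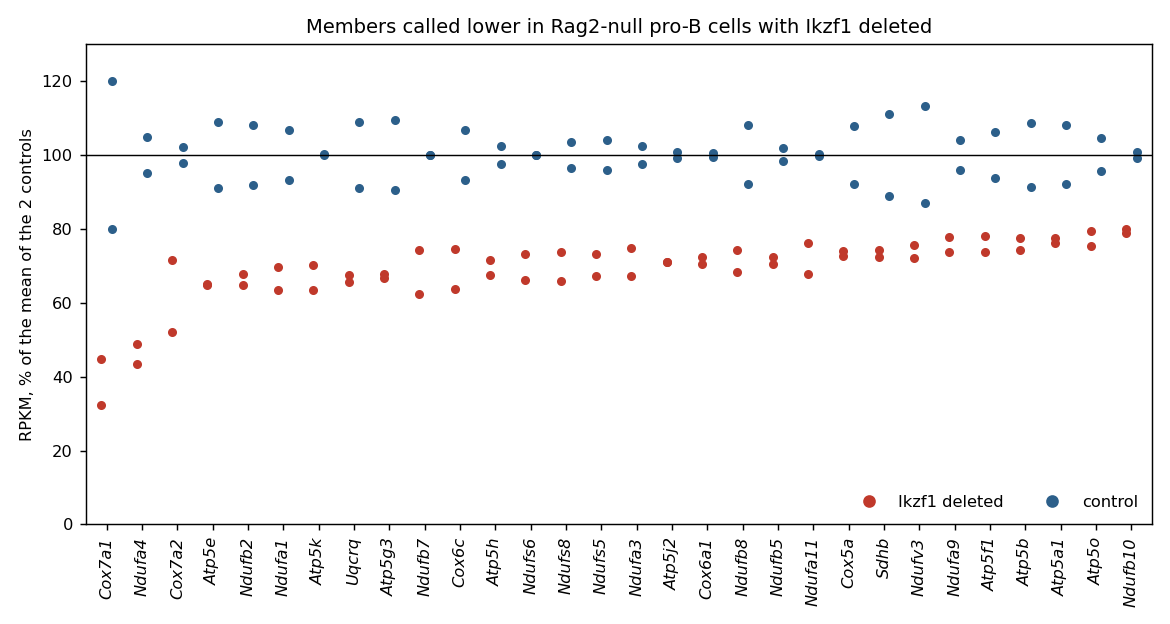
RPKM of each of the 30 members called lower in Rag2-null pro-B cells (x axis), as a percentage of the mean of the 2 controls (y axis). Red points are the 2 Ikzf1-deleted libraries and blue points the 2 controls. The deleted libraries lie under 100% for every gene shown, lowest for Ndufa4 and Cox7a1.

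These calls depended on how the spread and the scale were set. The share of all genes called in each alternative is not given here, so the counts below do not set members apart from other genes. With a single fit over all 30 libraries 1 member was called lower and 2 higher, with quantile normalization 4 lower and 1 higher, with median-ratio scaling 54 lower and 2 higher, and 19, 10, 10 or 9 were lower without control replicate 1, control replicate 2, deleted replicate 1 or deleted replicate 2. Ndufs6, Cox7a1, Ndufa4, Atp5g3 and Atp5h were called lower in all 4 fits that left out a library, and of these only Cox7a1 in all 11 alternatives. The summed RPKM of all genes also differed, at 468 and 457 kRPKM (kilo-RPKM) in deleted cells and 517 and 514 kRPKM in controls, as did the summed level of 6 T cell markers, at 9.32 to 9.56 RPKM in deleted cells and 42.5 to 45.8 RPKM in controls, and of 9 granulocyte markers, at 7.41 to 11.3 RPKM in deleted cells and 0.15 to 0.78 RPKM in controls. Of the granulocyte markers S100a9, Ngp and Elane were at 0 in both groups, and of the T cell markers Cd3g and Cd8a. In both controls S100a8, Mpo and Cd3e were at 0 as well. Cd3e was not at 0 in both deleted libraries, so it did not follow the T cell sum. The part of the summed RPKM and of these markers in the result was not tested.

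In total pro-B cells, 3 members rose and 4 fell with Ikzf1 deleted, against 13.5% and 9.89% of all genes tested, so the members' shares of 3.57% and 4.76% were below those of all genes. Their median log2 difference was 0.04, beside 0.03 for all genes. Both deleted libraries lay above both controls for 29 members, against 35.9% of all genes, and below both for 18, against 29% of all genes. Ndufb8, a complex I accessory subunit, fell, with 255 and 251 RPKM in deleted cells against 343.5 and 366 RPKM in controls (-0.48 ± 0.14, limma, adjusted p = 0.0204). Cox5a fell, with 191 and 207 RPKM in deleted cells against 270.4 and 233 RPKM in controls (-0.33, limma, adjusted p = 0.049). Cox8a, the widely expressed form of the smallest subunit of complex IV, rose, with 589 and 509 RPKM in deleted cells against 356 and 378 RPKM in controls (0.58, limma, adjusted p = 0.0189). None of these 3 had overlapping groups. Atp5sl, now named Dmac2 and known as a factor of complex I assembly, was at 30.4 and 29.7 RPKM in deleted cells and 16.9 and 17.3 RPKM in controls (0.78 ± 0.13, limma, adjusted p = 0.000888). Cox7a1 and Cox6a2 complete the calls together with Ndufs5, which fell by 0.67. The row used for Ndufs5 carries an accession that RefSeq now gives to the pseudogene Ndufs5-ps, so its reads cannot be assigned with certainty. The other Ndufs5 row had means of 17.7 RPKM in deleted and 28.5 RPKM in control cells. Only Cox6a2 and Atp5sl were called in all 4 fits that left out a library, when the number of members called ran from 3, without control replicate 1, to 5. The summed level of 7 pre-B markers was 336 to 349 RPKM in deleted, with Cd2 at 0, and 203 to 206 RPKM in control cells, and that of 3 NK cell markers 18.8 to 20.2 RPKM in deleted, with Ncr1 and Klrb1c at 0, and 2.04 to 2.47 RPKM in control cells, with Ncr1 at 0. Their part in these calls was not tested.

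In c-Kit-high pro-B cells, the fraction with high levels of the stem cell factor receptor, 4 members rose and 2 fell, against 11.6% and 5.6% of all genes tested. Their median was -0.01 and that of all genes 0.03. The deleted libraries lay above both controls for 19 members, against 30.6% of all genes, and below both for 13, against 23% of all genes. Ndufb9, a complex I accessory subunit, rose, with 255 and 203 RPKM in deleted cells against 147 and 156.5 RPKM in controls (0.58, limma, adjusted p = 0.005). Atp5sl rose, with 27.2 and 24.9 RPKM in deleted cells against 15.0 and 19.9 RPKM in controls (0.56, limma, adjusted p = 0.00937). Ndufv1, the flavin-binding subunit of complex I, was at 83.1 and 81.3 RPKM in deleted cells and 64.0 and 63.4 RPKM in controls (0.36, limma, adjusted p = 0.0435). The groups did not overlap for any of these. Ndufs4, an accessory subunit needed for complex I stability, fell, with 15.76 and 15.80 RPKM in deleted cells against 21.4 and 33.2 RPKM in controls (-0.72, limma, adjusted p = 0.0239), the Ndufs5 row fell by 0.48, and Cox6b2 rose. The other Ndufs5 row went the other way, with means of 16.9 RPKM in deleted and 14.2 RPKM in control cells. Without deleted replicate 1 only 1 member was called and without deleted replicate 2 only 2, and none of the 6 was called in every such fit. Histone transcripts took 0.627% of RPKM in deleted replicate 2 and 0.557% in control replicate 1 and 0.05% and 0.062% in the other libraries of this fraction. The pre-B markers summed to 478 to 515 RPKM in deleted and 204 to 212 RPKM in control cells. The part of histones and markers in these calls was not tested.

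The difference between the deletion effects was tested directly as an interaction. The effect in Rag2-null cells was below that in total pro-B cells for 12 members, or 14.3%, against 4.55% of all genes, and 8.54% of all genes were called the other way. Among these 12, Cox8a had the largest difference, at -0.96 ± 0.22 (limma, adjusted p = 0.0134), having been higher with deletion in total pro-B cells and, at 649 and 612 RPKM in deleted against 809 and 833 RPKM in control Rag2-null cells, not called there. Ndufa1 differed by -0.89 ± 0.20 (adjusted p = 0.00952), Ndufa4 by -0.85, Atp5e by -0.79 and Cox6a1 by -0.77. Cox6a1 was at 755 and 801 RPKM in deleted and 649 and 628 RPKM in control total pro-B cells, and at 815 and 836 RPKM in deleted and 1150 and 1162 RPKM in control Rag2-null cells. Only Ndufa1 was called in all 8 fits that left out a library, and 0 of the 12 in all 15 alternatives. The count was 2 without pro-B control replicate 1 or deleted replicate 2, 5 without pro-B control replicate 2 or Rag2-null deleted replicate 1, and 4 without Rag2-null deleted replicate 2. The effect in c-Kit-high cells was below that in total pro-B cells for 1 member, Cox6a2 (-2.42, limma, adjusted p = 0.0404), against 2.16% of all genes, and 4.54% of all genes were called the other way. The count was 0 without either pro-B control, c-Kit-high control replicate 2 or c-Kit-high deleted replicate 1, and 6 without c-Kit-high control replicate 1. Over the 3 deletions, 2 members (Cox6a2 and Atp5sl) were called higher in 2 of them, 3 members (Cox7a1, Ndufb8 and Cox5a) were called lower in 2, and the Ndufs5 row with the uncertain accession was called lower in all 3, while the other Ndufs5 row had a higher mean in deleted than in control c-Kit-high cells. The remaining calls were made in a single deletion, and 46 of the 84 tested members were called neither in a deletion nor in the knock-down that follows. Of these 46, 14 were called in the knock-down when replicate numbers were kept as a block, and 32 were not. The share of all genes with such calls over several comparisons is not given here, so these counts are a description only.

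**Figure D4:**
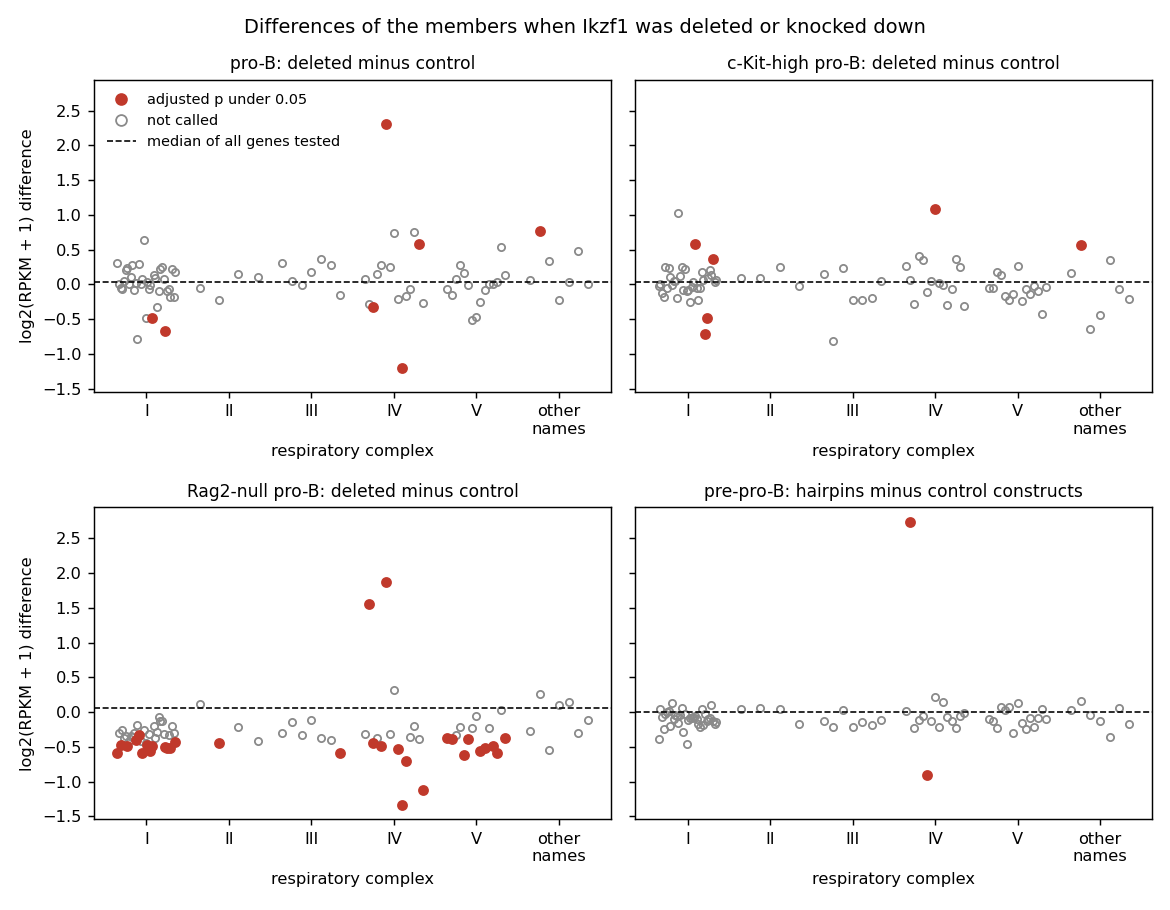
log2(RPKM + 1) difference (y axis) of every tested member, by respiratory complex (x axis), for the 3 deletions and the knock-down of Ikzf1; filled red points passed an adjusted p of 0.05, open grey points did not, and the dashed line is the median of all genes. Most points lie below the line in Rag2-null cells (median -0.35) and near it in the other comparisons. The knock-down was fitted without replicate numbers as a block.

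In Ebf1(-/-) pre-pro-B cells, the Ikzf1 hairpins were compared with both control constructs. In the fit without replicate numbers, Cox4i2 rose and Cox6a2 fell, both isoforms of complex IV subunits, and no other member was called. Of all 10744 genes tested, 13.4% were called higher and 6.04% lower. More members and more of all genes were called with replicate numbers kept as a block, as given in the next paragraph. The members' median was -0.09 and that of all genes 0.01. The same 2 genes were called with each hairpin on its own, where Ik4056 also had Cox6b2 higher by 0.58, a call lost in 9 of 18 alternatives, while with Ik2709 it had a difference of -0.16 without a call (backgrounds 13.7% higher and 5.21% lower for Ik4056, 7.81% and 3.86% for Ik2709). Without Ik2709 replicate 4 the call of Cox6a2 with that hairpin was lost. Between Ren713 and the empty vector 0 members and 0% of all genes were called by limma, and 0 members had an unadjusted p under 0.05. This fit leaves the deviation shared by a replicate number in its spread, so the lack of calls does not show that the controls are alike.

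Libraries of the same replicate number deviated together in these cells, and when the number was kept as a block the count of members called was 27, with 24 lower and 3 higher, against 23.1% and 28.8% of all genes called with the block. The 24 were 10 of complex I, 1 of complex II, 3 of complex III, 3 of complex IV, 6 of complex V and Ndufaf2. Ndufa1 was lower by 0.39, the assembly factor Ndufaf2 by 0.36, Atp5g1 by 0.30 and Atp5h by 0.24 on the log2 scale in the blocked fit. Ndufa1 had 117 to 251 RPKM with Ik4056 and 125 to 232 RPKM with Ik2709, against 154 to 276 RPKM with Ren713 and 147 to 295 RPKM with the empty vector. Within each replicate number both hairpins were lower than both controls for Ndufa1, while the groups as a whole overlapped. By hairpin the blocked fit gave 25 lower and 4 higher with Ik4056, against 20.8% and 30.2% of all genes, and 9 lower and 2 higher with Ik2709, against 17.3% and 20.5%. The summed level of 9 granulocyte markers was 767 to 1314 RPKM with Ik4056 and 445 to 1173 RPKM with Ik2709, against 34.4 to 115 RPKM with Ren713 and 25.6 to 85.6 RPKM with the empty vector, with S100a8 and S100a9 at 0 in all 4 groups. The 7 monocyte and macrophage markers summed to 108 to 166 RPKM with Ik4056 and 88.7 to 136 RPKM with Ik2709. With Ren713 this sum was 11.5 to 17.0 RPKM and with the empty vector 11.2 to 17.7 RPKM, with C1qa at 0 in all 4 groups. The 7 pre-B markers summed to 99.6 to 166 RPKM with Ik4056 and 77.6 to 121 RPKM with Ik2709. With Ren713 they summed to 31.3 to 58.1 RPKM and with the empty vector to 29.7 to 47.3 RPKM, with Ms4a1 at 0 in all 4 groups. The 6 pre-pro-B and progenitor markers summed to 863 to 1113 RPKM over the hairpins and 665 to 827 RPKM over the controls. The 6 T cell markers summed to 70.6 to 101 RPKM with Ik4056 and 43.2 to 63.7 RPKM with Ik2709. Their sum was 104 to 154 RPKM with Ren713 and 92.5 to 162 RPKM with the empty vector. Of them, Cd3e was at 0 in every Ren713 library, and Cd8a in every Ik2709 and every empty-vector library. The part of these markers in the results was not tested.

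The tissue-restricted forms of complex IV subunits each had a pattern of their own. Cox4i2, the lung form of subunit 4 that responds to oxygen, was at 23.3, 22.8, 19.3 and 21.1 RPKM with Ik4056 and 8.57, 14.5, 13.1 and 13.3 RPKM with Ik2709, against 0.763 to 2.14 RPKM over the 8 controls, with a median of 1.79 RPKM. Every hairpin library was above every control, and the log2 difference was 2.74 ± 0.14 (limma, adjusted p = 1.49e-09). In Rag2-null cells it was at 3.96 and 4.08 RPKM with Ikzf1 deleted, against 1.24 and 0.305 RPKM in controls (1.55 ± 0.41, limma, adjusted p = 0.019). In total pro-B cells it was at 1.21 and 0 RPKM in deleted and 0.591 and 1.07 RPKM in control cells and was not called. Even at its highest it stayed far under Cox4i1, which was at 1038 to 1989 RPKM with the hairpins.

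Cox6a2, the heart and skeletal muscle form of subunit 6a, had the widest range of log2 group means of the tested members, at 8.03. It was at 12.8 and 5.36 RPKM in deleted and 0.523 and 1.33 RPKM in control pro-B cells (2.32 ± 0.43, limma, adjusted p = 0.00261), and at 4.83 and 6.29 RPKM in deleted and 0.304 and 1.41 RPKM in control Rag2-null cells (1.88, adjusted p = 0.01). In neither did the groups overlap. In c-Kit-high cells it was at 1.13 and 3.21 RPKM in deleted and 1.88 and 2.61 RPKM in control cells, which overlapped. In wild-type pre-B cells it was at 31.1 and 41.6 RPKM. In pre-pro-B cells it was at 161 RPKM at the lowest, 251 RPKM at the median and 315 RPKM at the highest with the hairpins, against 313, 419 and 604 RPKM with the controls. There the direction was the opposite of that in total and Rag2-null pro-B cells, with a log2 difference of -0.90 ± 0.17 (limma, adjusted p = 0.00113).

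Cox7a1 was at 14.6 and 11.8 RPKM in deleted and 35.8 and 27.5 RPKM in control pro-B cells, without overlap (-1.20 ± 0.26, limma, adjusted p = 0.00568), which sets it beside its fall in Rag2-null cells. In c-Kit-high cells it was at 10.7 and 7.16 RPKM in deleted and 9.58 and 8.18 RPKM in control cells, and in pre-pro-B cells at 0.523 to 2.88 RPKM with the hairpins and 0.866 to 2.71 RPKM with the controls, both with overlap and without a call. Its widely expressed counterpart Cox7a2 was at 114 and 121 RPKM in deleted and 144 and 122 RPKM in control pro-B cells. Cox6b2 was at 46.4 and 52.9 RPKM in deleted and 18.9 and 27.7 RPKM in control c-Kit-high cells, without overlap (1.08, limma, adjusted p = 0.0235). In total pro-B cells it was at 7.97 and 4.67 RPKM in deleted and 3.13 and 3.38 RPKM in control cells, where it was not called (adjusted p = 0.0881). The windows of both genes are among those printed above, with 0 matches to the motifs searched.

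**Figure D5:**
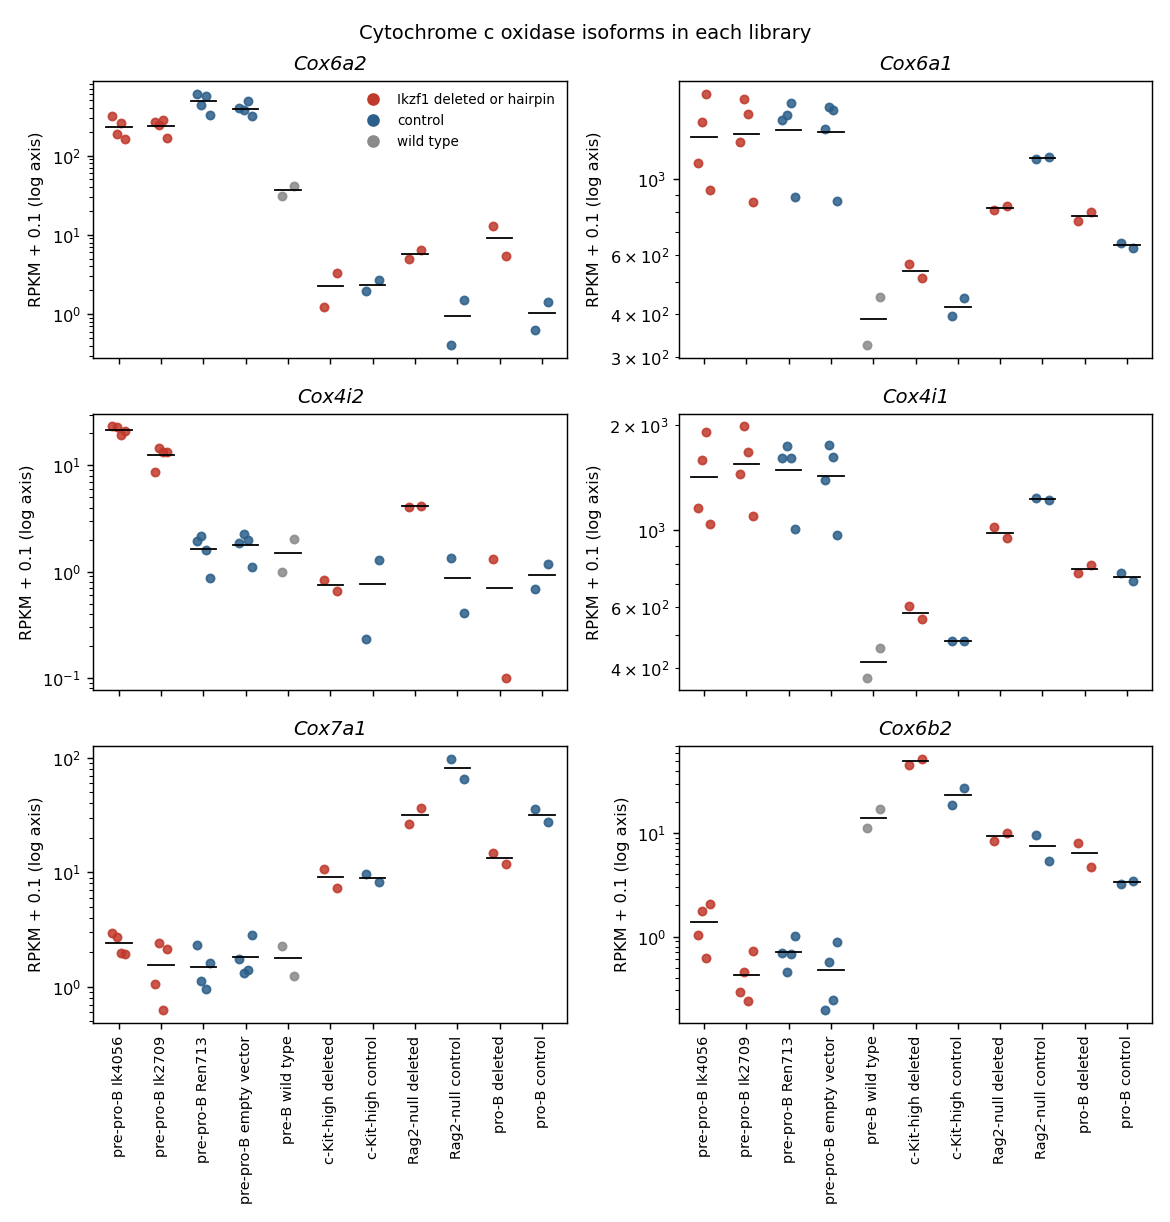
RPKM + 0.1 (y axes, log scale) of isoforms of cytochrome c oxidase subunits in each of the 30 libraries, with Ikzf1-deleted or hairpin groups left of their controls; points are libraries and horizontal lines are means. Cox4i2 is above all controls with both hairpins (8.57 to 23.3 RPKM), and Cox6a2 is higher in deleted than in control pro-B and Rag2-null cells and lower with the hairpins than with most controls.

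More members were called between stages and backgrounds than in the deletions of total and c-Kit-high cells. More of all genes were called there too, as the shares given with each comparison show. In c-Kit-high compared with total pro-B controls, 48 members were lower and 3 higher, against 23% and 27.8% of all genes, with a median of -0.49 beside 0.08 for all genes. Atp5b averaged 590 RPKM in c-Kit-high and 1185 RPKM in total pro-B controls (-1.01 ± 0.13, limma, adjusted p = 7.49e-05). Ndufb8 was lower by 1.09, Sdhb by 1.00, Uqcrq by 1.10 and Ndufaf2 by 1.27. The 3 that were higher were Cox6b2, with 18.9 and 27.7 RPKM in c-Kit-high against 3.13 and 3.38 RPKM in total pro-B controls (2.49 ± 0.29, limma, adjusted p = 4.26e-05), the assembly factor Ndufaf3 (0.91) and Cox7a2l (0.99). Over the fits with a library left out, 38 of the lower calls and Cox6b2 and Ndufaf3 of the higher ones were kept. The 9 granulocyte markers summed to 109 and 690 RPKM in c-Kit-high and 0.58 to 0.73 RPKM in total pro-B controls, and 7 monocyte and macrophage markers to 44.4 to 83.2 RPKM in c-Kit-high and 17.2 to 19.4 RPKM in total pro-B controls. In c-Kit-high controls no marker of either list was at 0 in both libraries, while in total pro-B controls S100a8, S100a9, Ngp, Camp, Elane and Mpo of the granulocyte and Adgre1, C1qa and C1qb of the monocyte and macrophage markers were. Among the c-Kit-high controls replicate 1 had the higher histone share, at 0.557% of RPKM, and replicate 2 an implied depth of 2.31 M reads, against 10.33 M reads in replicate 1. The part of markers, histones and depth in the result was not tested.

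In wild-type pre-B compared with c-Kit-high pro-B controls, 32 members were lower and 2 higher, against 29.8% and 19.2% of all genes, with a median of -0.25 beside -0.11 for all genes. The stages also differ in Cre and in the floxed allele. Cox7a1 was at 2.19 and 1.16 RPKM in pre-B and 9.58 and 8.18 RPKM in c-Kit-high cells (-1.91 ± 0.26, limma, adjusted p = 7.58e-05), and Atp5o, a stalk subunit of ATP synthase, averaged 87.4 RPKM in pre-B and 151 RPKM in c-Kit-high cells (-0.79 ± 0.10, limma, adjusted p = 3.57e-05). Cox6a2 rose by 3.52, and Atp5sl was at 44.9 and 48.7 RPKM in pre-B against 15.0 and 19.9 RPKM in c-Kit-high cells. The pre-B libraries held 7635 and 7902 RPKM of 9 granulocyte markers, with none at 0, against 109 and 690 RPKM in c-Kit-high controls. The 7 monocyte and macrophage markers summed to 566 to 747 RPKM in pre-B and 44.4 to 83.2 RPKM in c-Kit-high controls. The 5 erythroid markers summed to 103 to 140 RPKM in pre-B and 5.53 to 32.1 RPKM in c-Kit-high controls. The 6 T cell markers went the other way, at 14.4 to 15.0 RPKM in pre-B and 30.1 to 38.2 RPKM in c-Kit-high controls. Of them, Cd3e was at 0 in both c-Kit-high controls but not in both pre-B libraries. The part of these markers in the differences was not tested.

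In Rag2-null compared with Rag2-intact control pro-B cells, 63 members were higher and 2 lower, against 10.9% and 20.7% of all genes, with a median of 0.75 beside -0.08. Ndufa1 averaged 307 RPKM in Rag2-null and 100.3 RPKM in Rag2-intact cells (1.60 ± 0.14, limma, adjusted p = 2.17e-05), Atp5e 1365 RPKM in Rag2-null and 588 RPKM in Rag2-intact cells (1.21 ± 0.14, adjusted p = 0.00011) and Cox4i1 1226 RPKM in Rag2-null and 732 RPKM in Rag2-intact cells (0.75 ± 0.11, adjusted p = 0.000433). Uqcrb (-1.40) and Ndufs1 (-0.73) were lower. The implied depths were 26.88 to 29.85 M reads in Rag2-null and 10.24 to 11.57 M reads in Rag2-intact controls, so genotype and sequencing cannot be told apart. The highest fitted differences, of Atp5l (4.02) and Cox7c (3.78), are of genes with named pseudogene copies and are uncertain.

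In pre-pro-B controls compared with pro-B controls, 45 members were higher and 5 lower, against 25.3% and 30.1% of all 12272 genes tested, with a median of 0.61 beside -0.06. Cox6a2 averaged 438 RPKM in pre-pro-B and 0.926 RPKM in pro-B controls (7.83 ± 0.31, limma, adjusted p = 8.33e-16), and Cox7a1 was lower, at 1.57 RPKM in pre-pro-B and 31.6 RPKM in pro-B controls (-3.69). Cox8a was higher by 1.42 and Uqcr, a small subunit of complex III, by 1.32. With pro-B control replicate 1 or 2 left out 28 or 25 were higher and 2 lower. The pro-B controls carried Cre and a floxed Ikzf1 allele, and the pre-pro-B controls a control hairpin or an empty vector. Ikzf1 was at 59.2 and 56.4 RPKM in pro-B and at 106 to 145 RPKM in pre-pro-B controls. Stage, the Ebf1 genotype, these alleles and constructs, the Ikzf1 level and the sequencing runs cannot be told apart here.

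Other genes of respiration and growth were described in the same fits. The shares of all genes to set beside the Rag2-null counts are 6.84% lower and 15.5% higher, with a median of 0.06. In Rag2-null cells with Ikzf1 deleted, 3 of 40 assembly factors fell, among them Surf1, which complex IV assembly requires (-0.49), with a median of -0.10. Of 7 tested carriers Slc25a5, an ADP/ATP translocase, fell (-0.61). Of 21 genes of the citrate cycle and pyruvate dehydrogenase, Idh2, the mitochondrial NADP isocitrate dehydrogenase, rose (0.54) and Pdk1, a kinase that inhibits pyruvate dehydrogenase, fell (-0.43). Of 17 tested regulators of mitochondrial biogenesis, Myc (0.58) and Ppargc1a (0.62) rose. Mitochondrial ribosomal proteins had 12 of 75 lower with a median of -0.30, cytosolic ribosomal proteins 31 of 78 lower with a median of -0.55, and glycolysis 11 of 20 lower and 1 higher with a median of -0.60. In total pro-B cells glycolysis had 13 of 20 lower, against 9.89% of all genes, with a median of -0.79, Pdk1 averaged 14.7 RPKM in deleted and 34.8 RPKM in control cells (-1.19 ± 0.13, limma, adjusted p = 4.19e-05), and Ppargc1a, a coactivator of respiratory genes, averaged 2.84 RPKM in deleted and 0.335 RPKM in control cells (1.52 ± 0.19, limma, adjusted p = 9.75e-05). There Nrf1 and the mitochondrial DNA polymerase Polg were also higher, by 0.32 and 0.54, so that 3 of 17 regulators were called higher, against 13.5% of all genes.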

How the data were processed

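The series holds 48 samples, and its 18 chromatin immunoprecipitation samples were not analysed here. Polyadenylated RNA was made into strand-specific single-end libraries, per the labels' protocols. The build mm9 and the tools DESeq 1.8.3, HTSeq 0.5.3 and TopHat 1.4.1 are named in the submitters' processing notes. The values deposited by the authors are RPKM per gene model. RPKM is relative to each library, so a rise in a few abundant genes lowers all others. No raw counts were used, and implied reads per library are estimates.

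Members and lists were chosen with earlier results of these data known. Log2(RPKM + 1) values were fitted in R 4.3.3 by limma 3.58.1 with trended and robust variance moderation, a scale that understates changes of low genes. Genes with at least 1 RPKM in at least 2 libraries of a fit were tested. The 14 sorted-cell libraries in 7 groups gave 11937 genes and 7 residual degrees of freedom, the 16 pre-pro-B libraries 10744 and 12, and all 30 libraries 12272 and 19. Tests were two-sided with Benjamini-Hochberg adjustment over all genes tested, called under 0.05. The 3 deletions were fitted together, and the comparisons with pro-B or c-Kit-high controls share those control libraries. Tables were prepared in Python 3.11.15 (numpy 2.4.6, pandas 2.3.3) and plotted with matplotlib 3.10.9, and the fit was tested on simulated data.

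The named genes were a fixed list from each complex, the isoform pairs of complex IV, the members of each complex with the highest and lowest mean, and up to 3 called members of each complex and direction with the largest differences. Genes outside that rule, such as Ndufs6, Ndufs8, Atp5h and those of the blocked fit, were added after their values were seen. Replicate numbers of the pre-pro-B libraries follow runs of consecutive library numbers. Deviations from group means correlated at a median r of 0.775 over 24 pairs of the same number, at least 0.52 in each, and at a median of -0.22 over other pairs, and 16 of 16 libraries correlated best with their own number. The labels state no shared day, and the fit without the block was kept as the main one. That fit leaves the shared deviation in its spread, so it calls fewer members, and fewer of all genes, than the blocked fit. Alternatives covered scaling, pseudocount, low-value filter, the libraries in the fit, the block, subunits only, summed rows of a symbol and leaving out each library.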

Additional observations from a re-analysis of the deposited data

Results flagged for a closer look

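Of 245 sets of 4 pre-pro-B libraries examined, 18 held a library far from the other 3, which chance gives for about 1 in 20 sets. Replicate 3 stood above the others for 3 genes with named pseudogene copies. Cox7c was at 53.4 RPKM there with Ik4056, 55.0 RPKM with Ik2709, 47.3 RPKM with Ren713 and 48.6 RPKM with the empty vector. Atp5l was at 28.6, 26.4, 28.4 and 27.5 RPKM in the same libraries, and Ndufab1 at 30.5 RPKM with Ik4056, 28.8 RPKM with Ren713 and 32.4 RPKM with the empty vector. The other libraries that stood apart were 1 of Ik2709 for Ndufs1 (29.5 RPKM), Ndufv3 (147 RPKM) and Cox5b (520.5 RPKM), 1 of Ren713 for Ndufa3 (485.5 RPKM) and Atp5g2 (2.9 RPKM), and 1 of the empty vector for Atp5g2 (3.83 RPKM) and Atp5s (5.29 RPKM).

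The deletion effect in Rag2-null cells minus that in total pro-B cells passed the interaction test for 12 members, or 14.3%. Of all genes 4.55% were called in that direction and 8.54% in the other. Only Ndufa1 was called in all 8 fits that left out a library, and 0 of the 12 in all 15 alternatives. The log2 differences were -0.96 for Cox8a, -0.89 for Ndufa1, -0.85 for Ndufa4, -0.79 for Atp5e, -0.77 for Cox6a1, -0.73 for Uqcrfs1, -0.73 for Ndufa3, -0.64 for Ndufa7, -0.63 for Ndufb10, -0.61 for Uqcr, -0.60 for Ndufv3 and -0.50 for Atp5o. Between c-Kit-high and total pro-B cells the deletion effect differed for 1 member, Cox6a2, at -2.42. Of all genes 2.16% were called in that direction and 4.54% in the other. The Cox6a2 call was not kept in every fit that left out a library.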

How the results depend on the processing

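Counts of members called moved with the replicate block, the libraries that set the spread and the scaling, and the cause was not tested. Except for the block, the share of all genes called in the same alternative is not given. These counts therefore do not set the members apart from other genes. In a single fit of all 30 libraries, 4 members were called in the pro-B, 2 in the c-Kit-high and 3 in the Rag2-null deletion, 16 for pre-B against c-Kit-high cells, 27 for c-Kit-high and 29 for Rag2-null against total controls, and 1 for Rag2-null minus total pro-B. With the compared libraries alone these deletions gave 20, 2 and 20 and the 2 differences between deletions 20 (Rag2-null) and 2 (c-Kit-high). Quantile normalization gave 15, 10 and 5 for the deletions, 5 for Rag2-null minus total pro-B and a Rag2-null median of -0.16. It also put Atp5b lower in pre-pro-B than in pro-B controls (-0.13), the reverse of the main fit. Median-ratio scaling gave 56 in the Rag2-null deletion with a median of -0.48, and a median of -0.047 in the pro-B deletion. Under quantile and median-ratio scaling the median of all genes in the Rag2-null deletion was -0.07 and -0.03. With the replicate block the counts were 27 for the knock-down, 29 for Ik4056 and 11 for Ik2709. A pseudocount of 0.1 or no low-value filter gave 0 for c-Kit-high minus total pro-B. With each library left out in turn, counts ran from 3 to 5 in the pro-B deletion (median -0.012 to 0.122), 1 to 6 in the c-Kit-high deletion, 9 to 20 in the Rag2-null deletion (median -0.37 to -0.32), 1 to 2 with Ik2709, 27 to 56 in pre-pro-B against pro-B controls, 2 to 12 for Rag2-null minus total pro-B and 0 to 6 for c-Kit-high minus total pro-B. An alternative chosen after seeing the data left out the 9 members with a named pseudogene copy and gave 28 lower and 2 higher in the Rag2-null deletion. With 2 libraries a group, and 2.31 M implied reads in 1 of them, small differences of low genes were not detectable.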
